A study of Mus musculus with 12 samples.

Results

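The comparison set the cerebellum of spinocerebellar ataxia type 1 knock-in mice given the compound Hit 2 against the cerebellum of wild-type mice given the solvent alone. Its members were the 4 libraries titled Het-Hit2 (animals 410, 421, 422 and 430) and the 4 titled Wt-DMSO (animals 413, 425, 426 and 431), 8 of the 12 libraries of the series. The Hit 2 mice were heterozygous for an Atxn1 allele named 154Q beside a 2Q allele and received 25 mg/ml Hit 2 dissolved in DMSO (dimethyl sulfoxide). The wild-type mice received DMSO alone, kept below 4 ml/kg in both groups. Intraperitoneal injections began at 18 weeks of age and ran daily for 5 days, with 2 rest days and then 5 more days, and tissue was taken at 20 weeks. Total RNA depleted of ribosomal RNA was sequenced as stranded libraries with 100-base paired reads. Genotype and compound differ together between these groups, so their effects cannot be told apart here. The series title describes compounds that select CAG repeat RNA.

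Spinocerebellar ataxia type 1 is caused by a CAG repeat in ATXN1 that is expanded and encodes a lengthened polyglutamine stretch in ataxin-1, a nuclear protein that binds the repressor Capicua and other regulators of transcription. Purkinje cells, the output neurons of the cerebellar cortex, are the cells best known to be affected. They signal through a pathway in which glutamate acts through Gq and phospholipase C to release stored calcium, and genes of that pathway and other Purkinje cell genes are known to be reduced in models of the disease.

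The libraries held 16976854 to 43670280 reads counted in genes. Xist, the RNA of the inactive X chromosome, stood at 1403 and 1474 CPM (read counts scaled to library size) in wild-type animals 425 and 426 and at no more than 0.292 CPM in the other 6, where the Y-linked genes Ddx3y, Eif2s3y, Kdm5d and Uty were present. Thus 2 of the 4 wild-type libraries and none of the Hit 2 libraries came from animals with Xist RNA, and the labels used here do not give sex. Hit 2 animal 410 stood apart from the others. It lay at -71.3 on the first principal component (47.8% of the variance), where the next library lay at -22.8. Its oligodendrocyte marker score was 1.46 against 0.748 at most elsewhere, and its monoamine and cholinergic marker score was 3.14 against 1.26 at most elsewhere (a score averages, over the members of a list, how far each gene's log2 CPM lies from its own middle value across the 8 samples).

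Atxn1, the gene that carries the knock-in allele, was at 161, 170.1, 176 and 143 CPM in wild-type animals 413, 425, 426 and 431. In Hit 2 animals 410, 421, 422 and 430 it was at 183, 167, 179 and 138 CPM. The groups overlapped over nearly their whole range. The log2 change was 0.04 (SE 0.10, adjusted p = 0.949 by edgeR's quasi-likelihood test), and an exact two-sided permutation test gave p = 0.714, where 0.0286 is the smallest p that 4 against 4 allows. These counts pool the expanded and the other allele, so they do not give the level of the expanded transcript.

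Of 19053 genes tested, 54 (0.283%) differed at an adjusted p under 0.05. In the Hit 2 knock-in cerebella 21 were higher (0.11% of genes tested) and 33 lower (0.173%). In each of the 54 the 4 Hit 2 libraries lay wholly above or below the 4 wild-type ones, a separation seen upward in 2.95% and downward in 3.46% of all genes tested. A change of more than 2-fold was found in 5 of the higher and 16 of the lower genes. The median log2 change over all genes was 0.02. The call is sensitive to which animals are included. Without wild-type animal 425, 426 or 431 it left 8 genes each time, without Hit 2 animal 421 it left 10, and without 430 it left 17, all of them among the 54, while without 410 it gave 75. With only the libraries that lack Xist the count was 2, Clstn2 and Myo15, and with a term for Xist it was 6. Clstn2, Myo15, Igfbp5, Ccdc63, Car9 and Slc44a5 were called whichever single animal was left out.

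**Figure D1:**
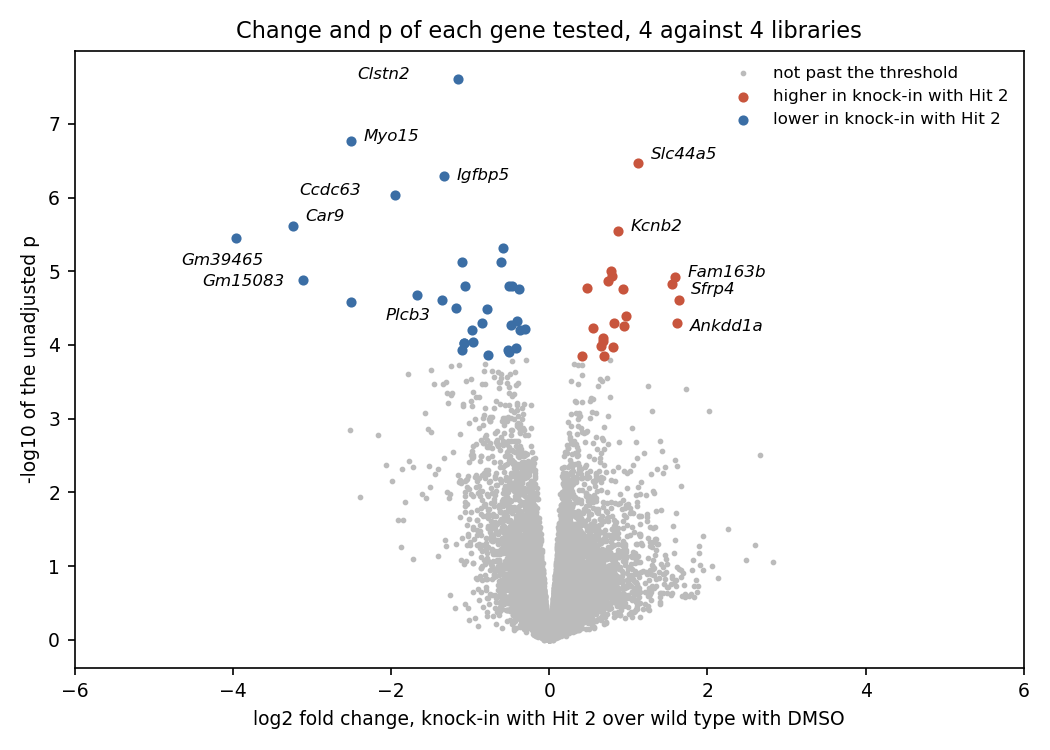
Each point is 1 of 19053 genes, with the log2 fold change of knock-in with Hit 2 over wild type with DMSO on the x axis and -log10 of the unadjusted p on the y axis. The 33 genes past the threshold that were lower (blue) reach a log2 change of -3.96, and the 21 that were higher (red) stay at or below 1.65.

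Clstn2 encodes calsyntenin-2, a cadherin-family protein of the postsynaptic membrane. It had the smallest p of all genes. Its level was 121, 120.2, 115 and 104 CPM in the wild-type animals (in the order 413, 425, 426, 431) and 53.8, 52.9, 47.1 and 52.4 CPM in the Hit 2 animals (in the order 410, 421, 422, 430). Every Hit 2 library lay at about the same level, far under the lowest wild-type one. The group means were 115 ± 7.84 and 51.5 ± 3.05 CPM (SD, n = 4 each), a 2.23-fold fall (log2 change -1.16, SE 0.07, edgeR adjusted p = 0.000467). The related genes Clstn1 and Clstn3 had log2 changes of 0.08 and -0.08 (adjusted p = 0.751 and 0.805).

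Myo15 encodes an unconventional myosin best known from the stereocilia of the inner ear. Wild-type levels were 16.3, 14.0, 15.1 and 22.0 CPM, and Hit 2 levels were 2.98, 2.99, 2.41 and 3.55 CPM. The groups were widely apart, and the spread was larger among wild-type animals. The fall was 5.67-fold (log2 change -2.50, SE 0.18, edgeR adjusted p = 0.00164). Myo15 was the single gene called in the fit of all 12 libraries, where its adjusted p was 0.0181. None of the other 18 myosin genes tested passed, Myo10 coming nearest with a log2 change of -0.39 (adjusted p = 0.0710).

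Promoter windows from RefSeq (GRCm38.p6, 250 bases before to 50 after the start) were matched for 42 of the 54 called genes, 13 higher and 29 lower, and searched on both strands. The Capicua octamers TGAATGAA, TCAATGAA, TGAATGGA and TCAATGGA were in none of the 42, against 2.95% of the 11923 tested genes with a window and 3.84% of all 32851 windows. The ROR element TAGGTCA was also in none, against 2.14% of those genes and 2.61% of windows. CACGTG, the E-box bound by clock factors, was in 3 of the 29 lower genes, Alad, Mlph and Slc20a1 (10.3%), against 11.1% of tested genes with a window and 7.15% of windows. The cAMP response element TGACGTCA was in 2 of the 29, Clstn2 and Ywhah (6.9%), against 3.41% of tested genes with a window and 1.79% of windows. None of these matches overlaps a match of another motif. The windows of both genes are shown 5′ to 3′ with the element in capitals, and that of Myo15, called in each of the 23 alternatives, holds none of the motifs.
Clstn2, chr9:98033118-98033417 (- strand): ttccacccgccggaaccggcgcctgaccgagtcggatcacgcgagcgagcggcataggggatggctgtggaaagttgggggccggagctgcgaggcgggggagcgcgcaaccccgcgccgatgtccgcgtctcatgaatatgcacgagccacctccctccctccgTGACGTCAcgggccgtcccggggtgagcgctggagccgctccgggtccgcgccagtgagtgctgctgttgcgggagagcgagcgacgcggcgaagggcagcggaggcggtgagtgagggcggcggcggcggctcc
Ywhah, chr5:33018566-33018865 (+ strand): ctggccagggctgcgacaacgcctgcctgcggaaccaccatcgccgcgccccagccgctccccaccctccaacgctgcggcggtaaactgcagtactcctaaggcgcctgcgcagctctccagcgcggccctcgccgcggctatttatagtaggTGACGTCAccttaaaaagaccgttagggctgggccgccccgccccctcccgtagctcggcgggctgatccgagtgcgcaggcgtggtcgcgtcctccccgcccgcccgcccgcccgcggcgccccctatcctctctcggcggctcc
Myo15, chr11:60469089-60469388 (+ strand): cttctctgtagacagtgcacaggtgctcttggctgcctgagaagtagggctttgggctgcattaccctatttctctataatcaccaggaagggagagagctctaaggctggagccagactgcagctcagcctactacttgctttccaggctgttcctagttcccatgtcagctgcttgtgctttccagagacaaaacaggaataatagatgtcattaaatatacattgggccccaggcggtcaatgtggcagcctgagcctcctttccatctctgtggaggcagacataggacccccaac
In Clstn2 the element begins 85 bases before the annotated start and in Ywhah 96 bases before it. The Clstn2 window is 72.7% G and C with 43 CpG dinucleotides, and the Myo15 window 51.0% with 1, where the median of all windows is 52.7% and 7.

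Igfbp5 encodes a secreted protein that binds insulin-like growth factors. It read 198, 193, 195 and 162 CPM in wild type and 80.4, 69.7, 62.6 and 86.2 CPM in Hit 2 animals. No library of either group came near the other group, and the fall was 2.50-fold (log2 change -1.32, SE 0.11, edgeR adjusted p = 0.00243). Among the other 12 genes of the insulin-like growth factor system none passed. Igfbp6 had a log2 change of -0.86 (adjusted p = 0.377) and Igfbp4 one of 0.65 (adjusted p = 0.432).

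Car9 encodes carbonic anhydrase IX, a membrane enzyme known to be induced by low oxygen. Its level was 5.18, 5.55, 6.43 and 4.64 CPM in wild type and 0.175, 0.747, 0.648 and 0.662 CPM with Hit 2. Each Hit 2 library was under 1 CPM, and the fall was 9.47-fold (log2 change -3.24, SE 0.32, edgeR adjusted p = 0.00763). Ccdc63, a coiled-coil protein gene, fell 3.86-fold, from 8.65 to 10.7 CPM in wild type to 1.81 to 3.08 CPM with Hit 2 (edgeR adjusted p = 0.00357). Gm39465, a long noncoding RNA, had the largest fall of the 54, 15.6-fold, from 22.1 to 36.8 CPM to 0.409 to 2.99 CPM (edgeR adjusted p = 0.00843). Gm15083, an antisense RNA, was at 1.28 to 2.97 CPM in wild type and 0.162 to 0.331 CPM with Hit 2.

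Ppp1r16b, a regulatory subunit of protein phosphatase 1, fell from 307 to 342 CPM to 204 to 231 CPM (log2 change -0.58, SE 0.06, edgeR adjusted p = 0.0102). Nab1, a corepressor of EGR transcription factors, fell by 0.51, and Twsg1, a secreted modulator of bone morphogenetic protein signalling, by 0.47 on the log2 scale. Rhobtb2, an atypical GTPase, changed by the narrow margin of -0.38 (SE 0.05), with wild-type libraries at 93.5 to 96.5 CPM and Hit 2 libraries at 70.9 to 77.5 CPM. Fam107b fell from 97.6 to 106 CPM to 35.1 to 58.5 CPM. Dnase2a, a lysosomal DNase, fell by 1.10 on the log2 scale, but its change was -0.45 (adjusted p = 0.132) when both strands were counted. The long noncoding RNA Mirt1 fell 3.20-fold. Cntnap5b, a contactin-associated cell adhesion gene, fell from 41.0 to 47.6 CPM to 27.1 to 31.1 CPM, while Cntnap2 of the same family rose (log2 change 0.42, edgeR adjusted p = 0.0496).

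**Figure D2:**
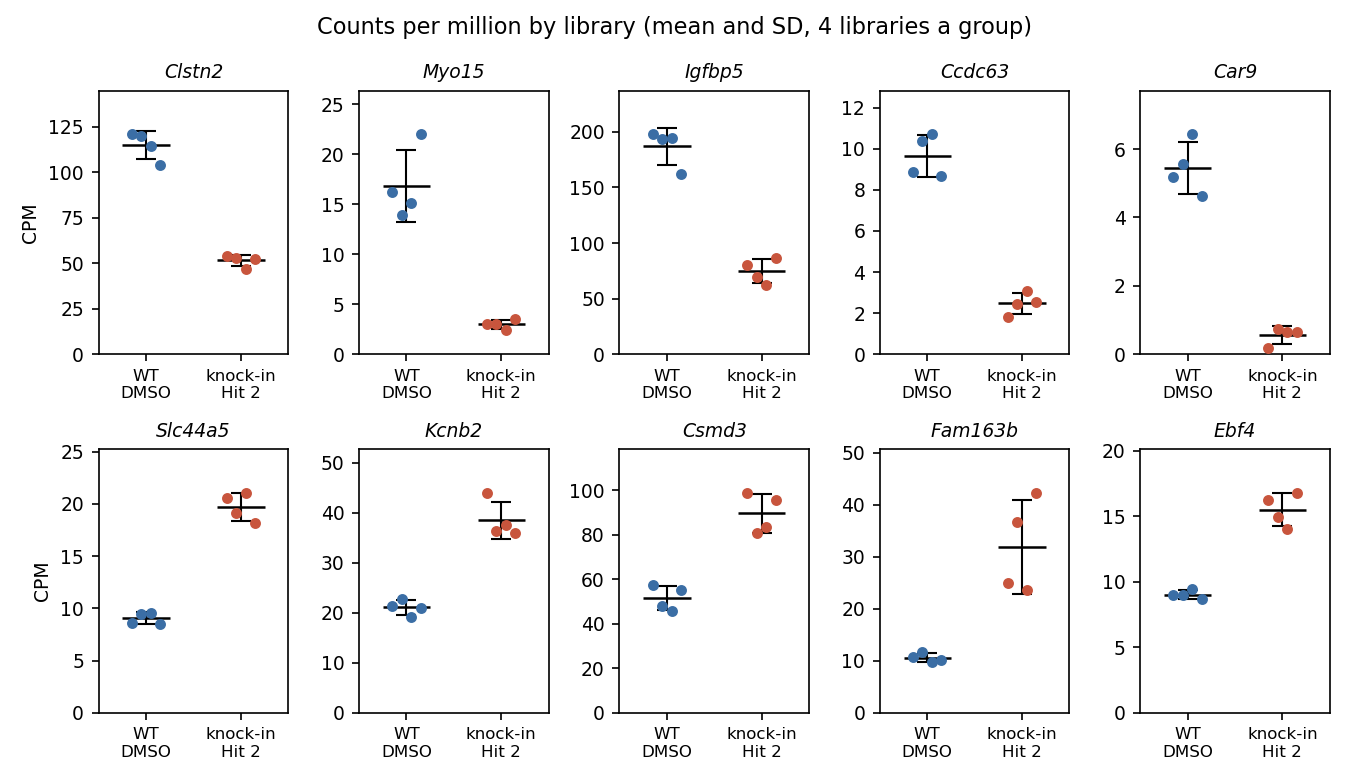
CPM on a linear axis from 0, with 1 point per library, the mean as a horizontal line and the SD as a bar (4 libraries a group). The upper row holds genes lower and the lower row genes higher in the Hit 2 knock-in animals, and in each panel the groups do not overlap.

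Among the higher genes Slc44a5, which encodes a choline transporter-like protein, had the smallest p. It was at 8.56, 9.47, 9.59 and 8.52 CPM in wild type and at 20.5, 19.2, 21.1 and 18.2 CPM with Hit 2. The values within each group were close together, and the rise was 2.18-fold (log2 change 1.13, SE 0.09, edgeR adjusted p = 0.00215). Kcnb2, a delayed-rectifier potassium channel subunit, stood at 21.4, 22.8, 19.3 and 20.9 CPM in wild type and at 44.0, 36.4, 37.6 and 36.0 CPM with Hit 2 (1.82-fold higher, edgeR adjusted p = 0.00766). Kcnk2, a two-pore potassium channel gene, rose 1.92-fold (edgeR adjusted p = 0.0293).

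The transcription factor gene Ebf4 rose from 8.65 to 9.45 CPM in wild type to 14.1 to 16.8 CPM with Hit 2 (edgeR adjusted p = 0.0145). Fam163b rose 3.00-fold, with Hit 2 libraries at 25.0, 36.6, 23.6 and 42.2 CPM against 9.69 to 11.7 CPM in wild type. Sfrp4, a secreted Wnt antagonist, rose 2.93-fold, from 1.73 to 2.27 CPM to 4.35 to 7.32 CPM. Hrk, a pro-apoptotic BH3-only protein gene, rose 1.96-fold and Ankdd1a 3.07-fold. Igsf10 rose 1.91-fold, and the antisense RNA A430027H14Rik 3.13-fold from at most 0.721 CPM. Gm19938, an intronic RNA, rose 1.46-fold.

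Csmd3, a gene of a large transmembrane protein, stood at 57.3, 48.1, 45.9 and 55.2 CPM in wild type and at 98.8, 80.6, 83.5 and 95.5 CPM with Hit 2 (1.74-fold higher, edgeR adjusted p = 0.0145). Csmd1 rose 1.76-fold, and Lrrc4c, the netrin-G1 ligand gene, 1.40-fold. The axon guidance receptor gene Robo1, the synaptic adhesion gene Nlgn1 and the lipoprotein receptor gene Lrp1b rose 1.61-fold, 1.57-fold and 1.61-fold. Related genes that did not pass were Csmd2, Robo2, Nlgn2, Nlgn3 and Lrp1. Csmd2 had a log2 change of 0.16 (adjusted p = 0.844), Robo2 of 0.11 (adjusted p = 0.937) and Nlgn3 of 0.13 (adjusted p = 0.520). Nlgn2 had one of -0.12 (adjusted p = 0.668) and Lrp1 one of -0.01 (adjusted p = 0.981).

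Of the 21 higher genes 7 (33.3%) span more than 500 kb in the mouse annotation, as do 2 of the 33 lower ones (6.06%) and 1.15% of all genes tested. The 7 are Csmd1, Csmd3, Lrrc4c, Robo1, Nlgn1, Cntnap2 and Lrp1b, and the 2 lower ones are Clstn2 and Cntnap5b. The median span was 75.3 kb for the higher, 29.3 kb for the lower and 16.8 kb for all genes tested. Among the 214 protein-coding genes over 500 kb the median log2 change was 0.09, beside 0.03 in the 9882 genes of up to 50 kb. Span was examined after the called genes were known.

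**Figure D3:**
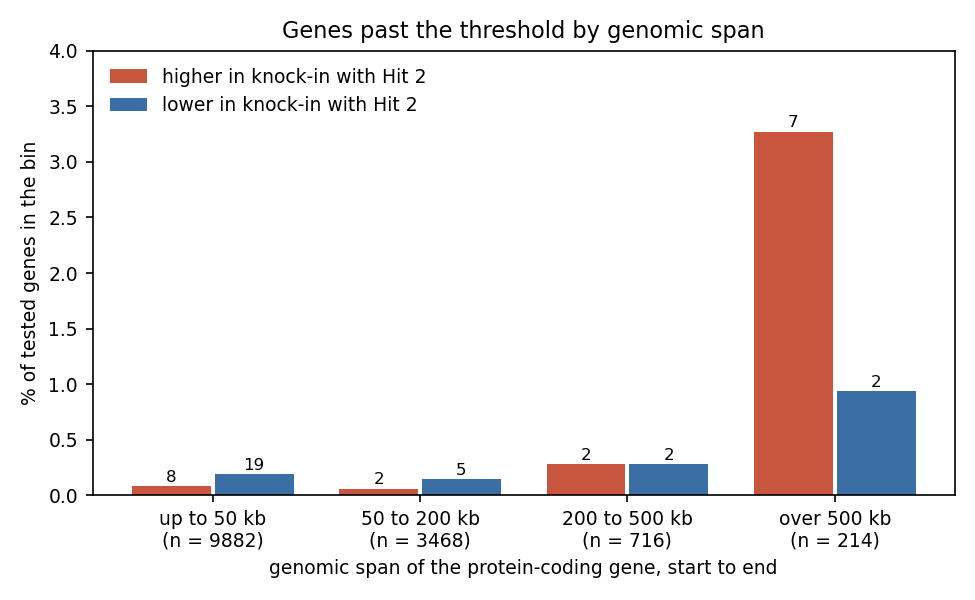
Share of tested protein-coding genes past the threshold (y axis, percent) by genomic span from start to end of the gene (x axis), with the number of genes above each bar. The bin over 500 kb holds 7 higher and 2 lower genes among 214.

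Most Purkinje cell markers had lower values with Hit 2, and 1 passed the test. Of 16 markers tested, 14 had a negative log2 change, 12 had all Hit 2 libraries under all wild-type libraries (3.46% of all genes tested did), and Gng13 alone was called (0.283% of all genes tested were). The median log2 change was -0.52, beside 0.02 over all genes. Without animal 410 the median was -0.36 with 2 called, and with only libraries lacking Xist it was -0.53. In bulk tissue, fewer cells of a type and less RNA per cell cannot be told apart.

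Gng13, a G protein gamma subunit gene, fell from 70.9, 80.4, 87.1 and 86.9 CPM in wild type to 25.5, 43.2, 46.4 and 39.1 CPM with Hit 2. The lowest value was in animal 410, and the other 3 animals were also under all of the wild type (log2 change -1.07, SE 0.16, edgeR adjusted p = 0.0397). Pcp4, a calmodulin-binding Purkinje cell protein gene, was at 29.4, 34.1, 39.2 and 37.1 CPM against 15.9, 18.3, 23.4 and 21.8 CPM and missed the threshold (log2 change -0.81, adjusted p = 0.0568). Calb1, the calcium buffer calbindin, was at 419, 375, 397 and 430.2 CPM in wild type. With Hit 2 it was at 163, 297, 342 and 276 CPM (log2 change -0.59, adjusted p = 0.334). Animal 410 again held the lowest value and the remaining 3 lay between it and the wild type. Pcp2 and Car8 showed the same order, with log2 changes of -0.62 and -0.63 (adjusted p = 0.362 and 0.361). Foxp2 and Stmn4 were the 2 members with positive log2 changes, 0.39 and 0.19 (adjusted p = 0.681 and 0.802).

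The list of calcium signalling, which shares Calb1, Car8, Itpr1 and Homer3 among others with the Purkinje list, held 22 genes tested. In 21 the log2 change was negative, 13 were lower without overlap (beside 3.46% of all genes tested), and the median was -0.44 (-0.32 without animal 410). Plcb3, a phospholipase C acting under Gq, was the 1 called member, beside 0.283% called of all genes tested. It was at 49.8, 83.5, 82.9 and 74.5 CPM in wild type and at 31.3, 35.0, 34.0 and 28.2 CPM with Hit 2. Animal 413 was the lowest of the wild type and still above each Hit 2 library (log2 change -1.18, SE 0.16, edgeR adjusted p = 0.0212). Itpr1, the receptor that releases calcium from stores, was at 4441 to 4763 CPM in wild type and 2030 to 3945 CPM with Hit 2 (log2 change -0.53, adjusted p = 0.386). Dgkh, a diacylglycerol kinase, was at 137 to 191 CPM in wild type and 86.5 to 121 CPM with Hit 2 (log2 change -0.60, adjusted p = 0.126).

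**Figure D4:**
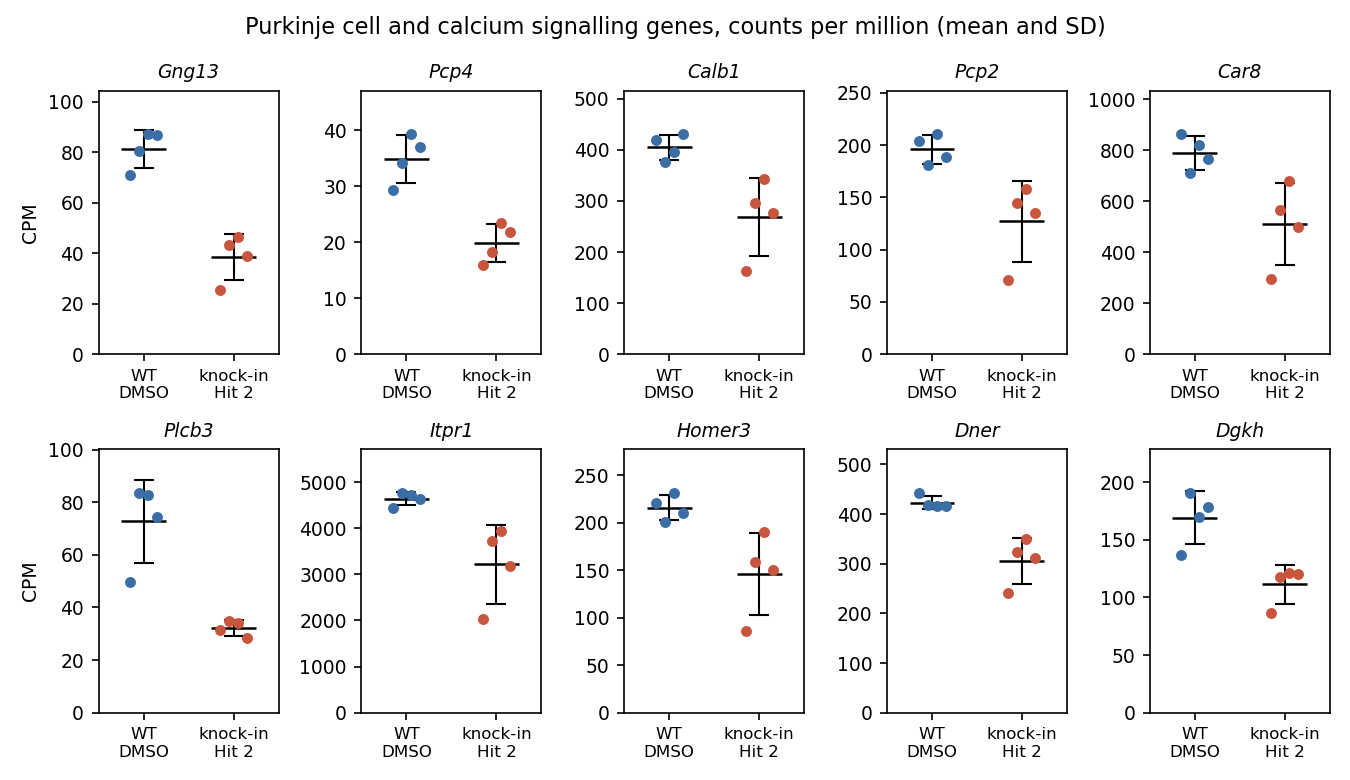
CPM on a linear axis from 0 for Purkinje cell and calcium signalling genes, with 1 point per library, the mean as a line and the SD as a bar (4 libraries a group). Gng13 and Plcb3 passed the threshold, and the lowest point of the Hit 2 group is animal 410 in 9 of the 10 panels, all but Plcb3.

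Further genes were picked after their values were seen, among them Kctd12, which passed the test. Aldoc, Grm4, Plcb4, Slc1a6, Gabbr2, Ebf2 and Nefh did not pass. Kctd12, an auxiliary subunit of GABA-B receptors, fell from 121, 201, 190.1 and 192 CPM to 84.2, 93.8, 98.1 and 83.8 CPM (edgeR adjusted p = 0.0397). Aldoc, the antigen zebrin II that marks Purkinje cell stripes and is also made by astrocytes, was at 811 to 1291 CPM in wild type and 554 to 705 CPM with Hit 2 (log2 change -0.82, adjusted p = 0.0636). Grm4, a metabotropic glutamate receptor of granule cell axons, was at 733 to 953 CPM against 252 to 478 CPM (log2 change -1.15, adjusted p = 0.0568). Plcb4, which marks the zebrin-negative stripes, had a log2 change of -0.21 (adjusted p = 0.609). Slc1a6, Gabbr2, Ebf2 and Nefh had log2 changes of -0.45, -0.45, -0.15 and 0.28 (edgeR adjusted p = 0.451, 0.173, 0.873 and 0.890).

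Just outside the threshold, Marcks had an adjusted p of 0.0512 (log2 change 0.69), and just inside, Slc25a29, Cntnap2 and Lrp1b had 0.0496. Between the named genes and that edge lay Plk5, a polo-like kinase gene (2.56-fold lower), the 14-3-3 gene Ywhah (1.40-fold lower), the melanosome transport gene Mlph (1.97-fold lower), the haem synthesis gene Alad (1.43-fold lower) and Col5a1, a collagen gene (1.73-fold lower). Neb, Clmn, Ipo5, Arhgap20, Slc20a1, Xk, Slc25a29, 2900064K03Rik and 4930447F24Rik were lower and Sox4 and Wtip higher. 4930447F24Rik had a log2 change of -2.51 that was -0.59 (adjusted p = 0.140) when both strands were counted, and for Gm15083 the change was -3.12 and -1.21 (adjusted p = 0.0603).

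Dusp5, a phosphatase of ERK and a gene repressed by Capicua, was at 70.3, 103.7, 109.8 and 93.9 CPM in wild type and at 36.5, 53.2, 38.6 and 51.0 CPM with Hit 2. Each Hit 2 library was under the wild type (2.11-fold lower, edgeR adjusted p = 0.0397). It was the only one of 13 Capicua target genes tested that passed, beside 0.283% of all genes tested. Of the 13, 7 had positive log2 changes, as did 10591 of all 19053 genes. Their median was 0.03, and over the fits that left out 1 animal it ran from -0.05 (without animal 431) to 0.09 (without animal 426). Spred2 had a log2 change of -0.33 (adjusted p = 0.201), Etv1 of -0.26 (adjusted p = 0.534) and Etv5 of -0.24 (adjusted p = 0.652). Of 11 partners of ataxin-1 none passed. Capicua itself (Cic) had a log2 change of -0.06 (adjusted p = 0.885) and Rora, a Purkinje cell nuclear receptor, one of -0.30 (adjusted p = 0.477). None of 10 polyglutamine disease genes passed.

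Markers of the other cell types gave no call. Log2 changes were negative in 11 of 13 granule cell genes and 11 of 12 astrocyte and Bergmann glia genes. Over all 19053 genes 8453 were lower. Without overlap, 1 of those 13 and 3 of those 12 were lower, beside 3.46% of all genes tested. The median log2 change was -0.21 for 13 granule cell genes (-0.105 without animal 410; Neurod1 -0.40, adjusted p = 0.271) and -0.18 for 12 astrocyte and Bergmann glia genes. Gdf10, a Bergmann glia gene, was at 104 to 177 CPM in wild type and 42.0 to 103.9 CPM with Hit 2 (log2 change -0.99, adjusted p = 0.201). Oligodendrocyte markers had a median of 0.14 over 13 genes, and of -0.47 without animal 410. For microglia it was 0.18 over 14 genes, and -0.08 without 410. Choroid plexus genes ranged widely within both groups, with scores over 2.9 in animals 413, 425 and 410 and under 0 in the other 5, and a median change of -0.90 that was -2.81 without 410 and ranged from -2.81 to -0.105 over the fits that left out 1 animal. Of 11 monoamine and cholinergic neuron markers 5 were tested, with a median of 1.03 that turned to -0.66 without 410. The 5 red blood cell genes had a median of 0.94 (0.45 without 410, and up to 2.39 over the fits that left out 1 animal). The medians were 0.20 for oligodendrocyte precursor genes (-0.16 without 410), 0.05 for endothelium and pericyte genes (-0.12), -0.13 for meningeal fibroblast genes (-0.32) and -0.003 for interneuron and unipolar brush cell genes (-0.13). The part of these marker differences in the results above was not tested.

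**Figure D5:**
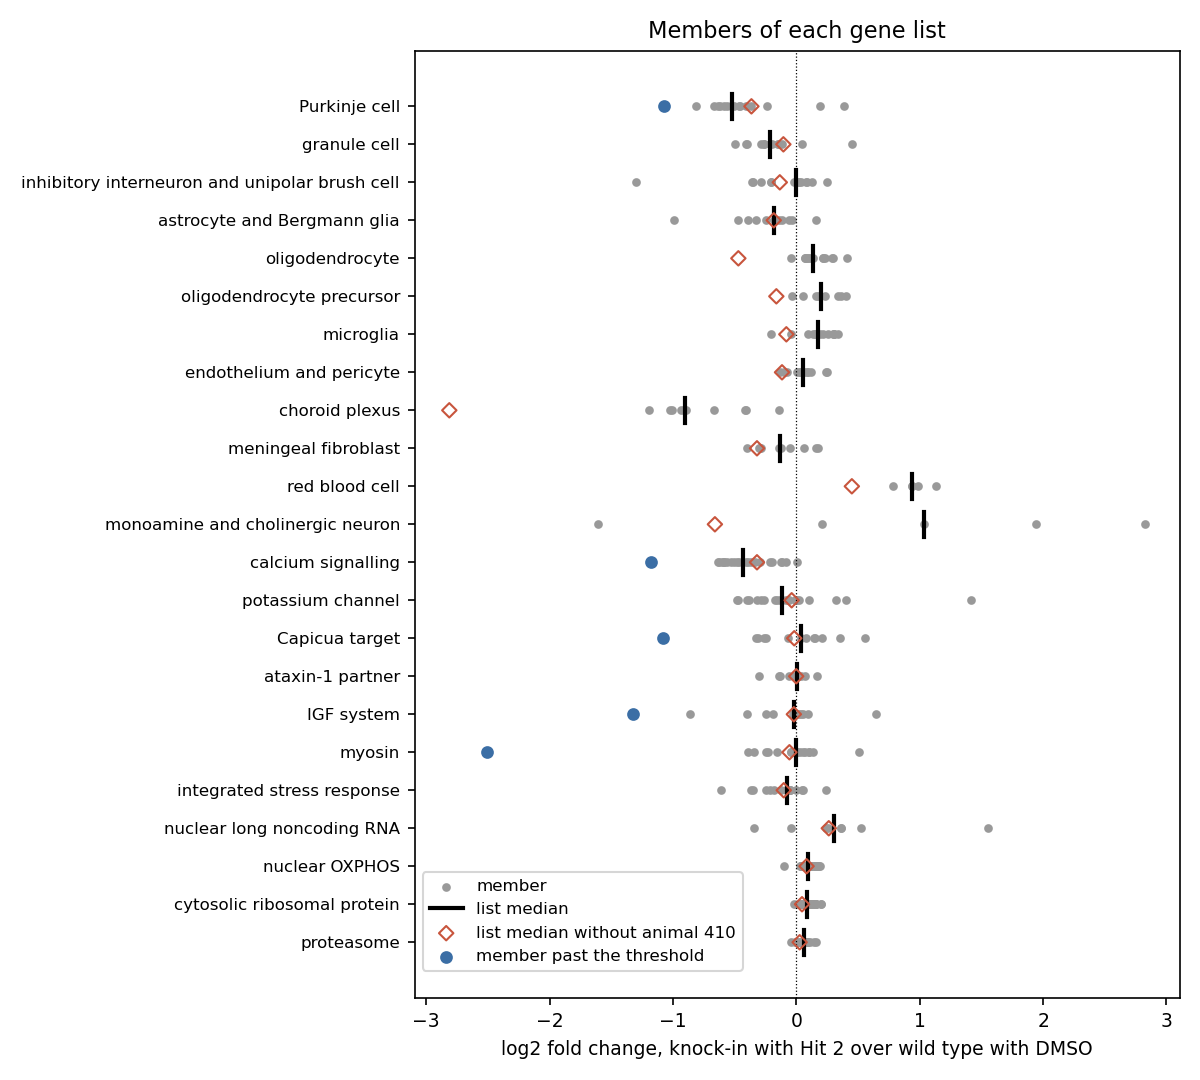
Log2 fold change (x axis) of each tested member (grey) of 12 cell type lists and 11 of the 31 pathway lists, with members past the threshold in blue, the list median as a black bar and the median without animal 410 as an open red diamond. The Purkinje cell and calcium signalling medians lie at -0.52 and -0.44 with all animals and at -0.36 and -0.32 without 410, while the oligodendrocyte median turns from 0.14 to -0.47.

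Over all 43 lists 605 genes were tested and 5 were called (beside 0.283% of all genes tested), Gng13, Plcb3, Igfbp5, Myo15 and Dusp5, so 38 lists held no called gene. No nuclear gene of oxidative phosphorylation passed, and 33 of the 34 tested had positive log2 changes (median 0.10, and 0.08 without animal 410). In 4 of the 34 all Hit 2 libraries lay above the wild type, against 2.95% of all genes tested. No cytosolic ribosomal protein gene passed, and 37 of 38 had positive log2 changes with a median of 0.08, against 0.05 without animal 410, where 6 of the 38 were negative. In a list of 8 long noncoding RNAs none passed, and 6 had positive log2 changes (median 0.31). All Hit 2 libraries lay above the wild type in Meg3, Rian and Mirg, with log2 changes of 0.53, 0.36 and 0.36 (adjusted p = 0.0909, 0.250 and 0.200), a separation seen in 2.95% of all genes tested. Malat1 was lower without overlap (-0.34, adjusted p = 0.243, beside 3.46% of all genes), Neat1 was at -0.04, Gas5 at 0.24, Snhg11 at 0.25 and Miat at 1.56 (adjusted p = 0.699). Lists of the integrated stress response (median -0.07), p53 targets (0.02), interferon-stimulated genes (0.18), xenobiotic metabolism (-0.03) and reactive glia (-0.07) held no called gene. These medians moved with single animals. Over the fits that left out 1 animal, the integrated stress response ran from -0.21 (without 430) to -0.07, and p53 targets from -0.05 (without 430) to 0.08 (without 410). Xenobiotic metabolism ran from -0.06 (without 413) to 0.02 (without 425), and reactive glia from -0.19 (without 410) to 0.09 (without 422). Interferon-stimulated genes ran from -0.07 (without 410, with 10 of 17 genes negative) to 0.19 (without 430).

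CAG repeats in other transcripts were examined because the compound is described as CAG-selective. A run of 5 or more CAG units occurs in the reference transcripts of 318 genes tested (1.67%). Of these 1 was called, Igsf10 with a run of 7 units, which was higher with Hit 2, beside 0.283% called of all genes tested, and none of the 33 lower genes has such a run. The median log2 change was 0.01 for the 318 genes and 0.02 for the rest. Kmt2d, whose transcript holds 16 units, had a log2 change of 0.04 (SE 0.10), and Sec24b with 15 units one of 0.04 (SE 0.05). The reference Atxn1 transcripts hold a longest run of 2 units.

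The 4 knock-in libraries given DMSO alone were not part of the fit, and their levels are set beside the others on a scale common to all 12 libraries. They share the wild-type animals as controls. Clstn2 was at 103.2 to 119.9 CPM in wild type, 46.8 to 53.3 CPM in knock-in with Hit 2 and 52.4 to 92.1 CPM in knock-in with DMSO. Myo15 was at 13.9 to 21.8, 2.39 to 3.52 and 1.49 to 3.50 CPM in the same order. For Igfbp5 the ranges were 161 to 196, 62.2 to 85.5 and 56.7 to 113 CPM, and for Slc44a5 they were 8.46 to 9.52, 18.0 to 20.9 and 13.3 to 23.1 CPM. In these 4 genes the range of the knock-in animals with DMSO overlapped that of the knock-in animals with Hit 2 and not that of the wild type. For Clstn2 that overlap came from animal 429 alone (52.4 CPM). Animals 409, 411 and 420, at 76.2, 92.1 and 62.2 CPM, lay above every Hit 2 library. For Plcb3 the ranges were 49.4 to 82.9, 28.0 to 34.8 and 18.3 to 61.0 CPM. The range of the knock-in animals with DMSO overlapped both others, with its ends in animals 411 (18.3 CPM) and 409 (61.0 CPM). Animals 420 and 429, at 42.6 and 42.1 CPM, lay between the wild-type and Hit 2 ranges. Dusp5 ranged from 1.87 to 94.1 CPM and Csmd3 from 27.4 to 184 CPM in the knock-in animals with DMSO, overlapping the wild type, with both extremes in animals 409 and 411. Animals 420 and 429 read 55.3 and 49.3 CPM for Dusp5 and 88.9 and 78.6 CPM for Csmd3. Animal 409 also had 0.0796% mitochondrial reads, against 1.85% to 2.81% in the 8 libraries of the comparison. Whether any gene differed between the knock-in groups was not tested here.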

How the data were processed

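Raw read counts per gene of 8 cerebellum libraries, 1 per animal, were analysed. Per the submitters' processing notes, reads were checked with FastQC 0.11.9 and aligned with STAR 2.7.10a to GRCm39 (mm39); the annotation release is not given in the sources used here. The authors deposited 3 count columns per library, and the reverse-strand counts were used, as the labels' protocol names a directional kit. The 4 summary lines were left out of library sizes; reads in no feature made up 51.0% to 54.6%, multimapping reads 4.08% to 4.89% and unmapped reads 4.21% to 6.53%. Of 55401 gene identifiers 55141 were matched to a symbol.

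Genes were filtered with filterByExpr, scaled by TMM and tested two-sided with edgeR 4.0.16 (R 4.3.3) by the quasi-likelihood test, with Benjamini-Hochberg adjustment over all genes tested and a threshold of 0.05. CPM use TMM-scaled library sizes, and log2 CPM add a prior count of 2. The fit was tested on simulated data. Up to 15 called genes per direction with the smallest p, a symbol and at least 1 CPM in the higher group were named, with Atxn1 and Myo15. Called list members were named, with some members of small p or that define a cell type. Many lists were only counted. Further genes in the text were picked with their values in view, and a few genes are not reported here. The comparison, the 43 gene lists and the tests were chosen with earlier results of these data known. The labels number animals without giving cage, litter or processing day, so p-values measure the spread between these animals. Gene spans and CAG runs come from GENCODE annotation of another build (GRCm38) and so serve as names and lengths only. Alternatives included DESeq2 1.42.0, limma 3.58.1 (voom), sva 3.50.0, other scaling, filters, strand counting, Xist as a covariate, the 12-library fit and leaving out each animal.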

Additional observations from a re-analysis of the deposited data

Results flagged for a closer look

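Of 98 checks of single libraries within groups of 4, 9 put 1 library far from the other 3, where chance alone flags about 1 in 20 groups. Hit 2 animal 422 had 43700000 reads in genes, against 20700000 in the next library of its group. Wild-type animal 426 had 6.53% unmapped reads, the next 4.72%. Hit 2 animal 410 had 5.54% of reads on the other strand, the next 6.05%, and an IGF system score of 0.176, the next -0.0762. Wild-type animal 431 had an endothelium and pericyte score of -0.361 (next 0.0338), a red blood cell score of 1.88 (next -0.762) and a ribosomal protein score of -0.147 (next -0.00835). The polyglutamine disease gene score of wild-type animal 426 was 0.0131 (next -0.0335), and the proteasome score of wild-type animal 413 was 0.0375 (next -0.0421).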

How the results depend on the processing

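The count of 54 genes past the threshold became 440 with DESeq2 (all 54 among them), 83 with no low-count filter, 183 with limma-voom and library quality weights, 293 with 1 surrogate variable and 116 at an adjusted p under 0.1. It became 1 with all 12 libraries in the fit (331 genes at an unadjusted p under 0.05), 6 with a covariate for libraries with Xist and 2 with only libraries without Xist. Leaving out 1 animal gave 8 to 75 genes. The cause of these shifts was not tested. Several of these fits hold fewer libraries, and the fit of all 12 libraries holds more. The count stayed within 1.5 times the main one with RLE (52) and upper-quartile factors (56), unstranded counts (47), a minimum mean of 50 reads per library (59), robust dispersion (55), limma-voom (50) and a 1.5-fold minimum (40). The 54 genes kept their sign in each of the 23 alternatives that tested them. The log2 change of Atxn1 was negative with library quality weights (-0.0101), without wild-type animal 431 (-0.0254) and without Hit 2 animal 410 (-0.0107), and ranged from -0.0254 to 0.1178 over the fits that left out 1 animal. It passed the threshold in none of the 23 alternatives. A further 121 genes outside the threshold, list members of smallest p, were followed in the alternatives. Of their 2776 values, 44 changed sign without passing the threshold and 47 passed it. No paired analysis was possible because the animal numbers do not recur between the groups.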
